A study of Saccharomyces cerevisiae with 4 samples.

Results

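The genes described here encode 60 assembly factors of the large ribosomal subunit of the budding yeast Saccharomyces cerevisiae. They were chosen by name, and all 60 were found among the 6002 protein-coding genes of the R64 gene table. By the step at which each factor joins or acts, 44 were placed in the early nucleolar step, 11 in the nuclear step and 5 in the export step, which also takes in the cytoplasmic factors. Where Arp4 peaks lay at these genes was read from 1 deposited list of 1430 peaks on 16 chromosomes.

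The peaks come from chromatin immunoprecipitation with sequencing of wild-type yeast in rich YPD medium, grown at 30 °C to mid-log phase (optical density about 0.6). Cells carried Arp4 with a 3Flag tag (2 samples) or no tag (2 samples), and an antibody against Flag was used on all 4. Arp4 is an actin-related protein of the nucleus that is shared by the histone acetyltransferase NuA4 and the chromatin remodellers SWR1 and INO80. Values per sample are not part of the list. Replicate error is therefore missing throughout, and no test between conditions was possible. The read depth is unknown, and the signal in untagged cells was not analysed here.

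The large subunit is built around a long RNA precursor that RNA polymerase I makes in the nucleolus. Assembly factors fold and trim this RNA, hold places for ribosomal proteins that come later, and are stripped off by ATPases and GTPases as the particle moves through the nucleus. Export adaptors then carry it through the nuclear pore, and the last factors leave in the cytoplasm. In fast-growing yeast the genes of these factors are switched on together with those of ribosomal proteins.

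Arp4 summits fell at 30 of the 60 genes (21.9% of all protein-coding genes had one). They lay more often inside the gene than at its promoter, by a margin that nearly closed at stricter peak thresholds. A summit is the highest point of a peak. A promoter summit lay in the window that opens 500 bp before the annotated start and closes 100 bp after it, and a body summit lay inside the gene more than 100 bp from both ends. A body summit was found in 20 of 60 members (33.3%, Wilson 95% interval 22.7 to 45.9), beside 10.1% of all protein-coding genes. A promoter summit was found in 13 of 60 (21.7%, Wilson 95% interval 13.1 to 33.6), beside 14.0% of all genes. The members' interval lay above the background for bodies and held it for promoters. The members were chosen with earlier results of these data known, so this describes the list and is not a test. The promoter share fell below that of all genes when a summit counted for the closest start alone (4 members, 6.67% beside 9.98%). It also did so without summits inside another gene (4 members, beside 10.6%) and in a window from 250 bp upstream to the start (0 members, beside 2.23%). The 30 genes with a summit of either kind include these promoter cases. Such intervals cover counting error over genes and nothing else. Among peaks of at least the median fold, 10 members had a body summit (beside 3.43% of all genes) and 9 a promoter summit (beside 9.88%). At a −log10 q of at least 10 there were 12 with a body summit (beside 6.03%) and 11 with a promoter summit (beside 11.3%). NOG2, SPB4 and REI1 had a summit of each kind, which was so in 2.20% of all genes.

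**Figure D1:**
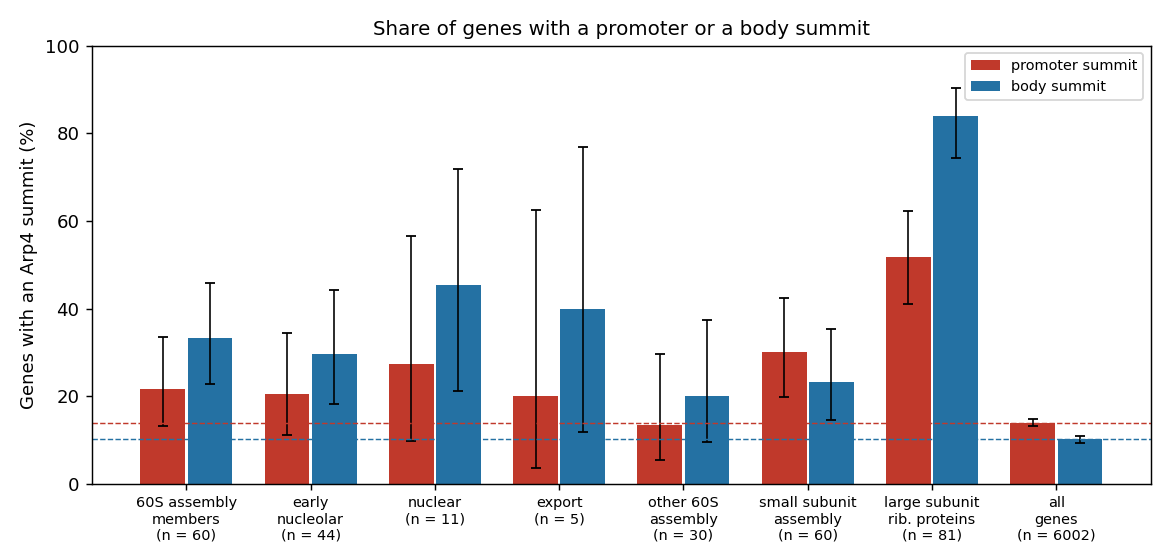
Share of genes with a promoter summit (red) or a body summit (blue), in percent, for the 60 assembly genes, their 3 steps and other gene lists; error bars are Wilson 95% intervals and dashed lines mark the shares over all 6002 genes. The body share of the assembly genes, 33.3%, stands above the 10.1% of all genes, and the bars of the 3 steps overlap widely.

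At both kinds of place the median height of member peaks was close to that over all genes. Fold enrichment is the authors' value, a linear ratio at the summit over the peak caller's background, and serves here to describe and rank the peaks. Over the list its median was 1.66 and its range 1.02 to 6.32. The strongest promoter summit of each of the 13 members had a median fold of 1.84 (range 1.47 to 3.03), beside 1.88 over all 839 genes with a promoter summit. The strongest body summit of each of the 20 members had a median of 1.67 (range 1.46 to 2.17), beside 1.55 over all 609 genes with a body summit. The highest member peaks, at DBP7, NSA1 and NOG1, ranked 78, 101 and 166 of 1430. At promoters, 4 of 13 members (30.8%) had a fold of 2 or more, beside 42.7% of all genes with a promoter summit. In bodies 2 of 20 did, beside 10.8%.

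**Figure D2:**
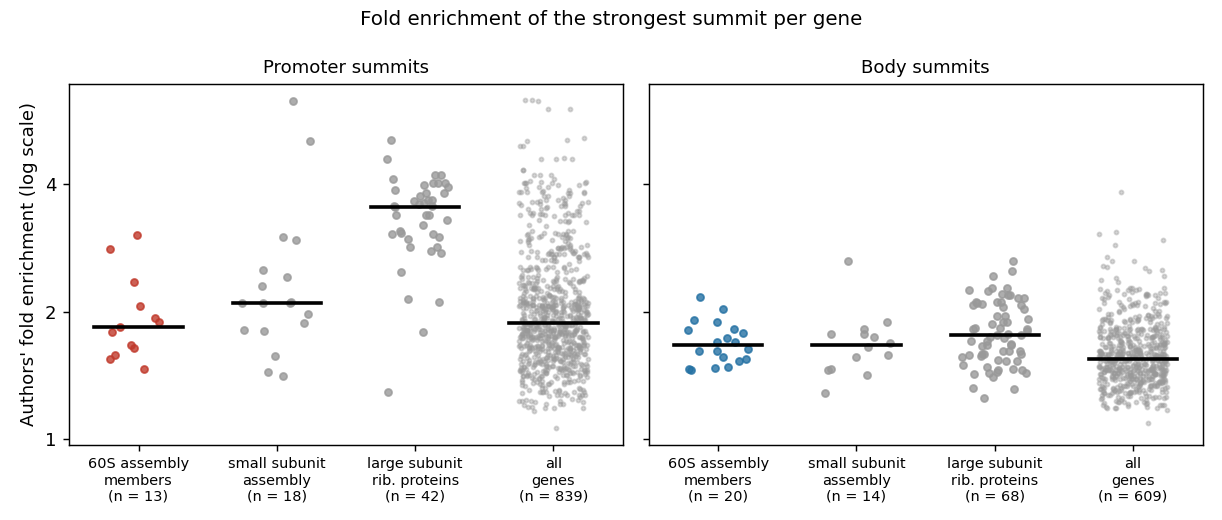
Authors' fold enrichment (log scale) of the strongest promoter summit (left) or body summit (right) of each gene; each point is a gene and the black bar is the median. Promoter summits of the assembly genes have a median of 1.84, near the 1.88 of all genes and below the 3.54 of large subunit ribosomal protein genes.

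Promoter summits sat far upstream, and most of them inside the neighbouring gene. In 11 of 13 members the summit lay 314 to 453 bp upstream of the start, and in the other 2 it lay inside the gene. None lay in the 300 bp directly upstream, where 207 of 826 other genes with a promoter summit had theirs. The share at least 300 bp upstream was 84.6% in members and 43.6% over all 839 genes. The median position was 370 bp upstream in members and 267 bp upstream over all genes. The summit fell within the span of another gene in 9 of 13 members (69.2%), beside 24.2% of all genes with a promoter summit. The member's own start was the nearest one for 4 of 13 (30.8%), NSA1, SSF2, NOG2 and REI1, beside 71.4% of all genes with a promoter summit.

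DBP7, which encodes a DEAD-box RNA helicase, had the highest fold of any member. The fold of its peak was 3.03, at a −log10 q of 74.6 (chromosome XI, 487684 to 488086). The summit lay 453 bp upstream of DBP7 and 55 bp inside the divergent gene RPC37, a subunit of RNA polymerase III. NSA1, a factor of the solvent side of early particles, followed at 2.81, with 57.2 for the −log10 q (chromosome VII, 299611 to 300234). Its summit lay 89 bp inside NSA1, with TAF6, a subunit of the general transcription factor TFIID, starting 339 bp away on the other strand. NSA1 was thus the member with the strongest peak whose summit lay in its own gene.

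NOG1 encodes a GTPase that joins in the nucleolus and leaves in the cytoplasm. Its peak had a fold of 2.35 and was 2798 bp wide, the third widest of the list (chromosome XVI, 370093 to 372890). The summit lay 336 bp upstream of NOG1 and 21 bp inside SEC62, a gene of protein translocation into the endoplasmic reticulum. The same peak covered 98.4% of NOG1, although NOG1 had no body summit. The founding Brix-domain factor BRX1 had a fold of 2.07 (chromosome XV, 186940 to 187305), with the summit 314 bp upstream and 13 bp inside MDM20, a subunit of an N-terminal acetyltransferase.

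The other promoter summits had folds below 2. The RNA helicase gene DBP6 had 1.79, with the summit 51 bp inside RSM19, a mitochondrial ribosomal protein gene. NSA2, needed for cleavage in the second internal transcribed spacer, had 1.89, with the summit 101 bp inside LCP5, itself an assembly gene of the small subunit. SSF2, another Brix-domain gene, had 1.84 and its summit 47 bp inside its own start (chromosome IV, 1087513 to 1087752). The summits of IPI3 (1.94), a subunit of the Rix1 complex, and of RLP24 (1.58), which holds the place of a ribosomal protein, were the 2 that lay between genes. That of RLP24 was 25 bp from the start of PAM18, a gene of mitochondrial protein import. RPF1 (1.64), NOG2 (1.67) and REI1 (1.55) had theirs in the upstream tandem gene, which was RTC3, the small subunit assembly gene ESF2 and the sphingolipid synthesis gene TSC10. SPB4, a helicase gene, had the lowest, 1.47, and its summit lay 205 bp inside DEG1, a tRNA pseudouridine synthase gene.

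The arrangement of neighbouring genes went along with these counts. Of the 29 members whose upstream neighbour is divergent, 9 had a promoter summit (31.0%), beside 17.6% of all genes so placed. Of the 31 with a tandem upstream neighbour, 4 had one (12.9%), beside 10.1%. The median gap to a divergent neighbour was 313 bp for members and 508 bp over all genes. A window of 500 bp thus often reached into the neighbour. Whether a summit that serves as the promoter summit of such a pair belongs to one gene or the other cannot be told apart.

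**Figure D3:**
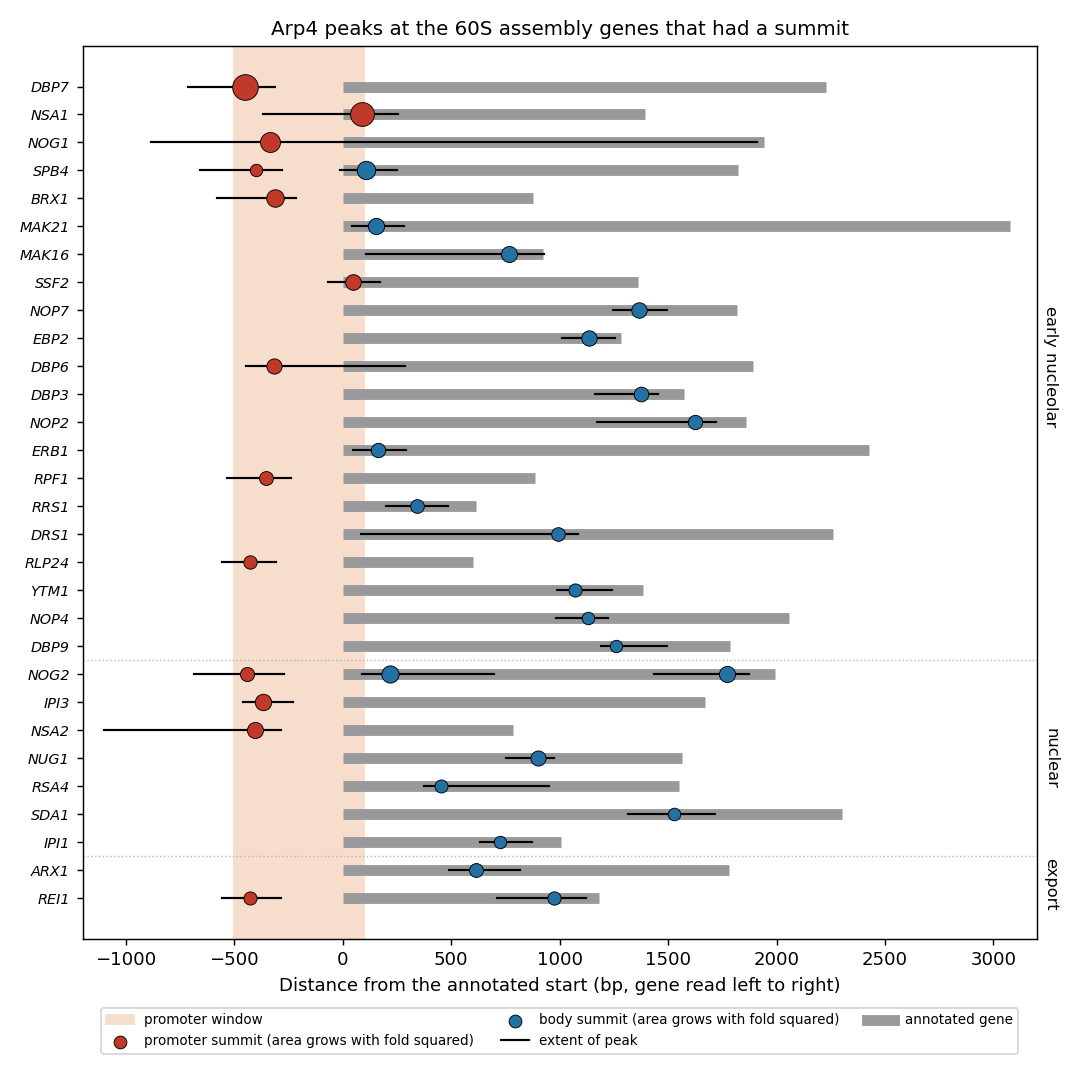
Arp4 peaks at the 30 assembly genes with a summit, each gene drawn as a grey bar from its annotated start; dots are summits, coloured by kind and sized by fold, black lines are the extent of peaks, and the shaded band is the promoter window. The red promoter dots gather 314 to 453 bp upstream apart from NSA1 and SSF2, and 8 of the 21 blue body dots lie within 300 bp of the gene end (38.1%, beside 42.2% over all genes).

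Body summits lay more often past the midpoint of the gene than before it, and in a few members just inside the start. Of 21 body summits in the 20 members, 14 lay past the midpoint of the gene (66.7%), beside 53.7% of 706 over all genes. From 70 to 90% of the gene length, a zone picked after the positions had been seen, there were 10 of the 21 (47.6%), beside 193 of 685 in other genes (28.2%). In the last 10% of the length there were 0 of the 21, beside 30 of 685. A body summit had to lie more than 100 bp from the end, which closes all of this zone in the shortest genes and part of it in others. These counts thus depend on that rule and on gene length. The median position was 66.3% of the gene length in members, beside 54.7% over all genes. Within 300 bp of the gene end there were 8 of 21 (38.1%, beside 42.2%). Of the 21, 2 also fell in the promoter window of another gene, at SPB4 and REI1.

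The summits near the end were in factors of several kinds. NOG2, a GTPase that holds the place of the export adaptor, had a fold of 1.90 and its summit 222 bp before the end (chromosome XIV, 721241 to 721676). MAK16, a partner of Rpf1, also had 1.90, with the summit 152 bp before the end and a peak over 88.6% of the gene (chromosome I, 100219 to 101040). EBP2, which works with Brx1, had 1.81 at 147 bp before the end, the shortest such distance among members. The helicase gene DBP3 had 1.73 at 196 bp, and the rRNA methyltransferase gene NOP2 had 1.70 at 230 bp (chromosome XIV, 511712 to 512259). REI1, a cytoplasmic factor that helps to release Arx1, had 1.57 at 208 bp, and the summit was 485 bp upstream of MRPL37, a mitochondrial ribosomal protein gene. RRS1, which brings in the 5S ribonucleoprotein, had 1.62 at 268 bp, and IPI1 of the Rix1 complex had 1.46 at 278 bp.

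A summit in the first 250 bp of the gene was found in 6 of 60 members (beside 7.13% of all genes), a zone drawn after the positions had been seen. These were NSA1 and SSF2, above, and 4 genes whose summit counted as a body summit. SPB4 had the highest body fold of all members, 2.17, with the summit 105 bp inside (chromosome VI, 146682 to 146946). The next was NOG2 with 2.03 at 218 bp (chromosome XIV, 722416 to 723023). MAK21, the partner of Noc2 on early particles, had 1.91 at 153 bp, and ERB1, the scaffold of the Nop7 complex, had 1.70 at 163 bp. SPB4 and NOG2 thus carried peaks on both sides of the start, and in each the upstream peak had the lower fold (1.47 and 1.67). In REI1 the promoter and body folds were 1.55 and 1.57.

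**Figure D4:**
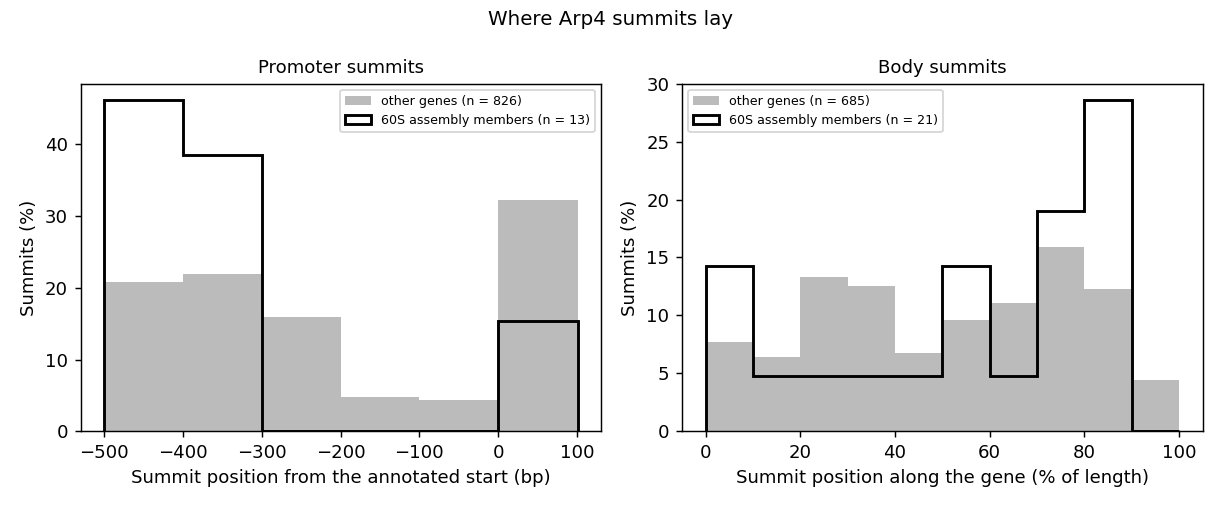
Position of promoter summits (left, bp from the annotated start) and of body summits (right, percent of gene length), as percent of summits, in the assembly genes (black line) and in other genes (grey). Members have 11 of 13 promoter summits more than 300 bp upstream and 10 of 21 body summits between 70 and 90% of the gene length, where other genes have 193 of 685.

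Body summits were found in 9 of 17 members of 1500 to 2000 bp, beside 9.33% of all genes of that length. Among shorter members they were found in 2 of 18 below 1000 bp (10.9% of all such genes) and 4 of 13 from 1000 to 1500 bp (10.3%). From 2000 bp on there were 5 of 12 (9.28%). The share over all genes thus changed little with length, while the 18 shortest members stood near it. The members' median length was 1388 bp, beside 1200 bp over all genes.

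By step, body summits were found in 13 of 44 early nucleolar, 5 of 11 nuclear and 2 of 5 export genes. Over all genes the share was 10.1%. Promoter summits were found in 9 of 44, 3 of 11 and 1 of 5. The share over all genes, 14.0%, lay in the Wilson 95% interval of the promoter share of each step. The Wilson 95% intervals of the body shares, 18.2 to 44.2%, 21.3 to 72.0% and 11.8 to 76.9%, overlapped, so no order of the steps can be read from these counts.

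Among early nucleolar factors, all 3 genes of the Nop7 complex had a body summit, beside 10.1% of all genes, and none had a promoter summit. NOP7 itself had a fold of 1.82 (chromosome VII, 696664 to 696911), ERB1 1.70 and YTM1, a substrate of the ATPase Mdn1, 1.55. The YTM1 peak lay below the list's median fold of 1.66 and, at 8.48, below a −log10 q of 10. At either stricter cut not all 3 genes would count. Of 9 RNA helicase genes, 6 had a summit of some kind, beside 21.9% of all genes. Besides DBP7, DBP6, SPB4 and DBP3 these were DRS1 (1.61) and DBP9 (1.46), while MAK5, DBP10 and HAS1 had none. DBP7 and DBP6 counted only through a promoter summit, which in both lay inside the neighbouring gene. Of the 4 genes grouped as Brix factors, RPF1, BRX1 and SSF2 had a promoter summit, beside 14.0% of all genes. The summits of RPF1 and BRX1 lay inside the neighbouring gene, and that of SSF2 inside its own start. SSF1, the paralogue of SSF2, had neither kind. RPF2, which also has a Brix domain but was grouped with its partner RRS1, had neither. Of 5 genes of RNA-binding factors, NOP4 had a body summit (1.47) and NOP12, NOP15, LOC1 and PUF6 had none. Of 3 rRNA methyltransferase genes, NOP2 alone had one, and RRP8 and SPB1 had none.

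Among nuclear factors, the GTPase genes NOG2 and NUG1 had a body summit, NUG1 with a fold of 1.78 (chromosome V, 163474 to 163699). Of the 4 GTPase genes over all steps these were the only 2, beside 10.1% of all genes, and NOG1 and LSG1 had none. RSA4, which Mdn1 pulls off the particle, had 1.53, and SDA1, needed for export, had 1.48. IPI1 and IPI3 each had 1 summit, while RIX1, the third gene of their complex, had none (21.9% of all genes had a summit of either kind). MDN1 had no summit in its 14733 bp, although it is the longest gene of the table. NOC3 and the exosome adaptor gene NOP53 had none either.

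Among export genes, ARX1, which sits at the polypeptide exit tunnel, had a body summit with a fold of 1.64 (chromosome IV, 656651 to 656975), and REI1 had its pair of summits. ALB1, NMD3 and LSG1 had none. A peak 1486 bp wide with its summit outside the gene covered all of ALB1 (100%). The nearest summit upstream of NMD3, the adaptor to the exportin Crm1, lay 594 bp from its start (fold 1.45), just outside the promoter window. That summit lay in the body of the tandem upstream gene DBP8, 242 bp before its end. PUF6 (645 bp) and NOP12 (708 bp) had the next nearest upstream summits outside the promoter window.

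The 30 members with neither kind of summit also included NOP16, NOC2, CIC1, RLP7, RRP1, RRP14, RRP15, RRP17, TIF6, MRT4, RSA3 and NIP7. From these 30 genes to the nearest summit there were 594 to 23442 bp, with a median of 2915 bp, and MAK5 was the farthest. Their median length was 1242 bp, beside 1784 bp for members with a body summit.

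A further list held other genes of the same pathway. Of its 30 large subunit assembly genes, 6 had a body summit (20.0%, Wilson 95% interval 9.51 to 37.3%) and 4 a promoter summit (13.3%). Their highest folds were at the promoters of SQT1 (2.74), a chaperone of a ribosomal protein, and JIP5 (1.94), and in the body of BUD20 (2.11), an export factor. Their interval for bodies held the 10.1% of all genes and also overlapped that of the members.

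Of 60 small subunit assembly genes, 18 had a promoter summit (30.0%) and 14 a body summit (23.3%). In 10 of the 18 the promoter summit lay inside the gene start, beside 2 of 13 in members, and the own start was the nearest for 14 genes, beside 4. Their highest promoter folds, at RRP7 (6.28) and UTP9 (5.06), were above the 3.03 of DBP7. Past the midpoint lay 4 of their 17 body summits, beside 14 of 21 in members. The lean past the midpoint was not particular to members. It was 4 of 6 body summits in the further list of large subunit assembly genes and 62 of 68 in large subunit ribosomal protein genes. Of the 81 large subunit ribosomal protein genes, stalk proteins included, 42 had a promoter summit (51.9%) with a median fold of 3.54 and 68 a body summit (84.0%) with a median fold of 1.76. Without ribosomal protein genes, the share over all genes was 8.51% for body summits and 13.0% for promoter summits. These differences between lists were not tested.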

How the data were processed

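The submitters' processing notes name BWA 0.7.15-r1140, SAMtools 1.4, MACS2 and fastp 0.21.0. Not given in the sources used here are the genome build, the control, the threshold and any pooling of the 2 tagged libraries. The authors deposited 1 peak list without a header, in the narrowPeak layout. Its deposited fold enrichment is a linear ratio, its deposited −log10 values are of the peak caller's p and q (lowest −log10 q 1.31), and its deposited score, 10 times the −log10 q without decimals in 100% of peaks, was not used.

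Summits were the peak start plus the summit offset, counted from 1, and were placed on R64 genes, with strand read from systematic names. As a check of the build, 46 of 275 tRNA genes had a summit within 100 bp of their centre, and 2 to 10 did once all summits had been shifted 200 to 1000 bp. Coordinates are printed for peaks only. MDN1 is REA1 in the gene table. Where a gene had several summits of a kind, the strongest was used for folds and promoter positions. Every member was named. The members, lists and zones were chosen with earlier results of these data known, and the steps were assigned from general knowledge. With 1 list and no replicate values no test was run. Gene assignment was tested on simulated data, with summits planted from the same starts and strands. That run checks the arithmetic and could not reveal a wrong start, strand or build. The work used matplotlib 3.10.9, pandas 2.3.3, scipy 1.17.1 and numpy 2.4.6 under Python 3.11.15. Alternatives covered thresholds, windows, overlap rules and step placing. Promoter motifs were planned but not analysed here.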

Additional observations from a re-analysis of the deposited data

How the results depend on the processing

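No paired analysis was possible because the list has no columns per sample, and for the same reason no replicate could be left out. Promoter counts depended on the window and the assignment: 0 members had a summit from 250 bp upstream to the start (2.23% of all genes), 4 when each summit went to the nearest start (9.98%), and 4 without summits inside another gene (10.6%), the last chosen after seeing the data. For body summits, peaks of at least the median fold left 10 members (16.7%, beside 3.43% of all genes), and a −log10 q of at least 10 left 12 (beside 6.03%); stricter thresholds remove peaks by construction. With NOG1, RLP24, TIF6 and MRT4 in the export step, that step had 3 promoter summits in 9 genes. The other 22 of 28 alternatives, 4 of them added after seeing the data, left counts within 1.5 times or medians within their interval. Some of these could not have moved. NOG1, RLP24, TIF6 and MRT4 had no body summit and none was in the nuclear step. Body counts by step and the nuclear promoter count were thus fixed in advance. No member had a second promoter summit, so taking the summit nearest the start changed nothing. Median fold with the narrow window could not be given, since no member was left, and the motif alternative was not run. Unknown depth limits what a missing peak means.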
